A study of Mus musculus with 12 samples.

Results

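The cyclins, kinases and activators that carry fibroblasts through G1 were followed in 3T9 MycER;YAP cells treated with OHT, with dox or with both. Ccnd1, Ccnd2, Ccnd3, Ccne1, Ccne2, Cdk2, Cdk4, Cdk6, Skp2 and Cdc25a were picked by symbol for their known roles, and all 10 were found among the 21671 lines of the expression table and among the 12257 genes tested. 3T9 cells are immortalized mouse embryonic fibroblasts. These carry 2 switches: MycER, a Myc fusion always made but silent without 4-hydroxytamoxifen (OHT), and a drug-selected vector that makes YAP S127A, an active form of the coactivator YAP, when doxycycline (dox) is present. According to the labels, OHT was given at 400 nM and dox at 2 µg/mL, and the cells were quiescent and confluent. RNA-seq covered 4 groups of 3 libraries: OHT, dox, OHT+dox, and mock, which carried MycER and the YAP S127A vector as well. The sources used here do not give how long the cells were treated. Cells without MycER given OHT and cells without the vector given dox were not analysed here, so MycER cannot be told apart from OHT itself, nor YAP S127A from dox itself.

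The table holds no value per library, so each level below is a group mean of normalized counts with its standard error (SE), recovered from the deposited comparisons with mock. Differences between groups were tested on the log2 scale by two-sided Wald tests with Benjamini-Hochberg adjustment over the 12257 genes, and a gene is said to rise or fall only at an adjusted p under 0.05. The labels do not say that the libraries of a group came from separate cultures, so the p-values reflect the variation among these libraries alone, and that variation may be technical. The recovered dispersion, put as a coefficient of variation between libraries without counting noise, was lowest for Cdk4 (6.73%) and highest for Ccne1 (18.6%) among the 10 genes. It is an estimate averaged over the comparisons, on which the p-values rest, and not a spread observed among single libraries. Relative library depth, read from the size factors, ranged from 0.814 to 1.13, and read totals are unknown. The cells expressed 9 of 10 fibroblast markers at a mean of 10 or more, with Thy1 at 0.344, and the highest marker of epithelium, endothelium, muscle or adipocytes reached 3.50 in the OHT+dox comparison. Of 5 macrophage markers Cd68 was at 41.1 and Cd14 at 29.4 there, and the other 3 were under 10, with Ptprc at 0.494. As a check of the labels, the YAP target Ctgf had a log2 fold change of 0.64 ± 0.09 (SE) with dox and −0.32 ± 0.09 with OHT, and the Myc target Ncl of 0.94 ± 0.10 with OHT and 0.45 ± 0.10 with dox. Odc1, another Myc target, had 0.04 ± 0.08 with OHT (adjusted p = 0.775, Wald test) and rose by 0.37 ± 0.08 with dox. The YAP targets Cyr61 and Ankrd1 had 0.33 ± 0.09 and 1.27 ± 0.36 with dox, and −0.16 ± 0.09 and −1.31 ± 0.43 with OHT. Myc mRNA itself rose with dox (0.75 ± 0.14, adjusted p = 1.02e-05, Wald test) and fell with OHT (−1.15 ± 0.15, adjusted p = 1.47e-12). Yap1 mRNA was at −0.05 ± 0.09 with dox (adjusted p = 0.821, Wald test), and the sources used here do not say whether reads of the transgene were counted there.

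The D-type cyclins, encoded by Ccnd1, Ccnd2 and Ccnd3, are made in response to growth signals and bind the kinases Cdk4 and Cdk6, which begin to phosphorylate the retinoblastoma protein. This frees E2F transcription factors, whose targets include the E-type cyclins Ccne1 and Ccne2, and cyclin E with Cdk2 then drives the cell into S phase. Skp2 is the F-box protein that marks the inhibitor p27 for destruction, and Cdc25a is the phosphatase that strips inhibitory phosphates from Cdk2. Myc and YAP are both known as promoters of cell cycle entry, and Ccnd2, Cdk4 and Cdc25a are textbook targets of Myc.

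Promoter sequences of the members illustrate which of these genes carry the letters that Myc, E2F and TEAD, the DNA-binding partner of YAP, are known to favour. RefSeq windows on GRCm38.p6 (250 bases before to 50 after a start site, 300 bases each) were held for 7 of the 10 genes, in 9 windows, whereas the authors aligned to mm9. They were searched on both strands for the E-box CACGTG, for the E2F forms TTTCCCGC, TTTGGCGC, TTTCGCGC and TTTGCCGC, and for the TEAD form GGAATG. No match overlapped another. Shown 5′ to 3′ along the gene are Ccne1, which had the highest log2 fold change of the 10 genes with OHT and with OHT+dox, Cdk4 and Cdk6, which hold E-boxes, and Cdc25a and Cdk2, which hold an E2F form, with the matches in capitals.
Ccne1 (GRCm38.p6, chr7:38107441-38107740, minus strand): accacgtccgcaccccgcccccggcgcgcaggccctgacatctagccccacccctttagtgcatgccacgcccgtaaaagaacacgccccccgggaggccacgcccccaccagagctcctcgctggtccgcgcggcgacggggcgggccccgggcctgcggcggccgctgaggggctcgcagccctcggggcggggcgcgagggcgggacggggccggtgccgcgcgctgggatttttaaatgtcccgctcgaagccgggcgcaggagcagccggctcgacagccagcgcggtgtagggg
Cdk4 (GRCm38.p6, chr10:127063285-127063584, plus strand): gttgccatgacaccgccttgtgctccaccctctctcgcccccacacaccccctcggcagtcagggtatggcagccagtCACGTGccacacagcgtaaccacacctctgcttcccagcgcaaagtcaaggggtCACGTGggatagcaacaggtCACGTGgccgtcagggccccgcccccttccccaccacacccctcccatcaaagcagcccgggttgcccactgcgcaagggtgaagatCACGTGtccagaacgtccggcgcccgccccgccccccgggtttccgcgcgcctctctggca
Cdk6 (GRCm38.p6, chr5:3343643-3343942, plus strand): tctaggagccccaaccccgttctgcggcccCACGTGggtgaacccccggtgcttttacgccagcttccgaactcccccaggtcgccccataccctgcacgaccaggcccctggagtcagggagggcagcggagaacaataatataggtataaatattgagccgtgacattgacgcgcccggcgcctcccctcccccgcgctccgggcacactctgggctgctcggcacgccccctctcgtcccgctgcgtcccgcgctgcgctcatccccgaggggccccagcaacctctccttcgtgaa
Cdc25a (GRCm38.p6, chr9:109875329-109875628, plus strand): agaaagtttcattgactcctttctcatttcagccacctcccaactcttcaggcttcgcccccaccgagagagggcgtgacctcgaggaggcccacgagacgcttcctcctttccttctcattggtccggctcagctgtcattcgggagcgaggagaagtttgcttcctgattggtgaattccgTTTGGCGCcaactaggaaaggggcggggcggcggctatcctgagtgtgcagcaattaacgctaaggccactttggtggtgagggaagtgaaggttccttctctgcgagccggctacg
Cdk2 (GRCm38.p6, chr10:128705002-128705301, minus strand): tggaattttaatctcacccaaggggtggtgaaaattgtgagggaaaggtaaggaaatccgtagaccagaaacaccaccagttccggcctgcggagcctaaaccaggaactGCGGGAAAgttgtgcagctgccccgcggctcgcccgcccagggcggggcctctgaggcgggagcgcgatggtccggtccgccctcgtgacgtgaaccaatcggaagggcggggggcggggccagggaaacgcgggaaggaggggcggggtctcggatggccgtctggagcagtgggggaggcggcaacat
Cdk4 held 4 E-boxes, beginning 172, 118, 98 and 11 bases before the start, and Cdk6 held 1, beginning 220 bases before it. Cdc25a had TTTGGCGC beginning 67 bases before the start, and Cdk2 had GCGGGAAA, an E2F form read on the other strand, beginning 140 bases before it. The TEAD form stood only in 1 of 2 Ccnd3 windows (CATTCC, 17 bases before the start), and the Ccne1 window and both Skp2 windows held none of these letters. Over all 32851 promoter windows of the same length, 7.15% held the E-box, 2.26% an E2F form and 14.7% the TEAD form. Over the 11730 windows of tested genes these shares were 9.86%, 3.95% and 12.3%. A match is a description of the sequence and not a bound site.

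With OHT the cyclin E genes rose most. Of the 10 genes 5 rose (Ccne1, Ccne2, Cdk6, Skp2 and Cdc25a) and 0 fell, while over all 12257 genes 12.8% rose and 9.02% fell. At an unadjusted p under 0.05, 6 of the 10 were higher and 0 lower, where 3945 of all 12257 genes passed in either direction. The median log2 fold change was 0.33 over the 10 genes and −0.01 over all genes. With dox 3 genes rose, Ccnd1, Skp2 and Cdc25a, and again 0 fell, where 6.3% of all genes rose and 4.58% fell. The unadjusted count with dox was 6 higher and 0 lower, where 2783 of all 12257 genes passed in either direction. The medians were 0.34 and −0.01. With OHT+dox 9 of the 10 genes rose, all but Cdk2, and 0 fell, where 20.8% of all genes rose and 19.3% fell. The medians were 0.60 and −0.01. At an unadjusted p under 0.05, 9 were higher and 0 lower, where 5810 of all 12257 genes passed in either direction. The 3 comparisons share the mock libraries. In 7 of the 10 genes the means stood in the order OHT+dox, OHT, dox, mock, which was not counted over all genes. In Ccnd1 and Ccnd2 dox stood above OHT, and Cdk2 had the order dox, mock, OHT, OHT+dox. A larger share of cells in cycle and more mRNA per cell cannot be told apart in these bulk samples. With standard errors multiplied by 0.696, the spread of the interaction z-values, 8 genes rose with OHT and 7 with dox. Of all 12257 genes, 4898 and 3474 were then called in either direction.

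**Figure D1:**
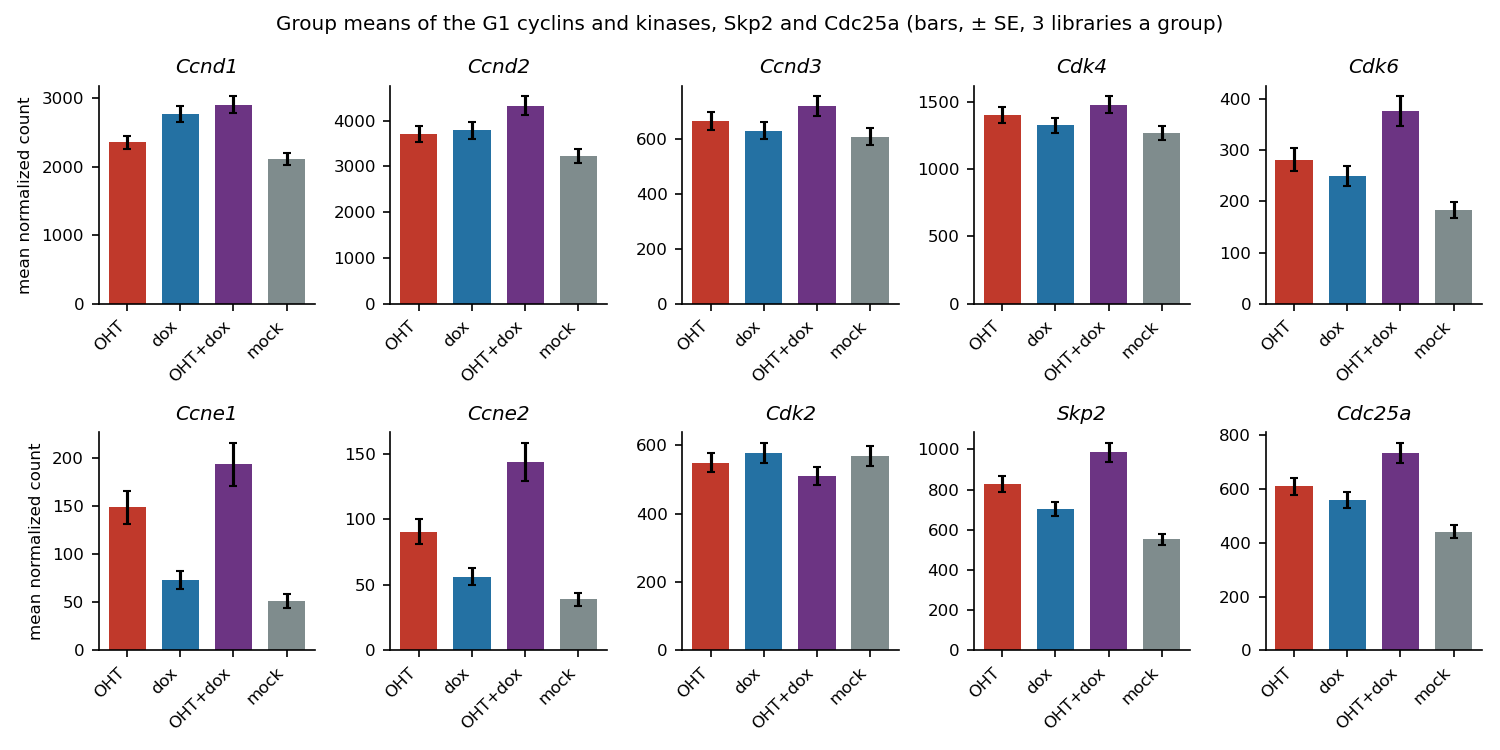
Group means (bars, mean normalized count, with SE) of the 10 genes in OHT, dox, OHT+dox and mock, 3 libraries a group, each panel on its own axis. Ccne1 and Ccne2 stand highest with OHT+dox (194 and 144) against mock (51.3 and 38.9), and Cdk2 stays between 511 and 578 in all 4 groups.

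Of the 10 genes, Ccne1 had the largest log2 fold change with OHT and with OHT+dox. Its mean normalized count was 149 ± 17.5 (SE) with OHT, 73.5 ± 9.32 with dox and 194 ± 22.3 with OHT+dox, against 51.3 ± 6.89 in mock. The OHT and OHT+dox means stood well apart from mock, and the dox mean lay nearer to mock. The log2 fold change over mock was 1.54 ± 0.26 with OHT (adjusted p = 9.38e-08, Wald test) and 1.92 ± 0.26 with OHT+dox (adjusted p = 1.71e-12), which placed Ccne1 at ranks 65 and 55 from the top of the 12257 genes. With dox it was 0.52 ± 0.27 with a 95% interval from just below 0 to 1.04, and did not pass the test (adjusted p = 0.225). Over all alternatives the dox value of Ccne1 ran from 0.16 to 0.70, and its adjusted p (Wald test) from 0.0225 to 0.842. The SE and the interval do not include this dependence on the recovery. Set against each other, OHT lay above dox by 1.02 ± 0.25 on the log2 scale (adjusted p = 0.000664) and OHT+dox above dox by 1.4 ± 0.25 (adjusted p = 5.98e-07). OHT+dox exceeded OHT by 0.38 ± 0.24, which did not pass (adjusted p = 0.452, 95% interval −0.09 to 0.85).

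Ccne2, the second E-type cyclin, followed the same order and was the only one of the 10 genes to pass the test at every direct step between treated groups. The means were 90.5 ± 9.72 with OHT, 56.1 ± 6.59 with dox and 144 ± 14.5 with OHT+dox, against 38.9 ± 4.98 in mock. All 3 treated means were above mock by more than their SEs. Over mock, the log2 fold change of Ccne2 was 1.22 ± 0.24 with OHT (adjusted p = 9.47e-06, Wald test) and 1.89 ± 0.24 with OHT+dox (adjusted p = 3.96e-14). Dox alone gave 0.53 ± 0.25 (adjusted p = 0.176), and for this gene the dox mean rests on the mock mean and the dispersion on the other comparisons, because the authors' filter had left it without an adjusted p there. Over all alternatives the dox value of Ccne2 ran from 0.20 to 0.68, and its adjusted p (Wald test) from 0.0123 to 0.765. OHT+dox exceeded OHT by 0.67 ± 0.21 (adjusted p = 0.0382) and dox by 1.36 ± 0.22 (adjusted p = 6.35e-08), and OHT exceeded dox by 0.69 ± 0.23 (adjusted p = 0.0204). With a prior standard deviation 10 percent lower in the recovery, the difference of OHT+dox from OHT (adjusted p = 0.0944) and that of OHT from dox (adjusted p = 0.0515) no longer passed, and over all alternatives their adjusted p-values ran from 0.000145 to 0.0944 and from 0.000119 to 0.0515.

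Cdk2, the kinase partner of cyclin E, did not pass any of the 7 tests. Its means were 549 ± 27.7 with OHT, 578 ± 29.0 with dox and 511 ± 26.0 with OHT+dox, against 568 ± 28.6 in mock. They lay close together, with OHT+dox lowest. The OHT+dox log2 fold change was −0.15 ± 0.10 (adjusted p = 0.236, Wald test), and its 95% interval from −0.36 to 0.05 leaves room for a small difference in either direction. OHT and dox had intervals of −0.25 to 0.15 and −0.18 to 0.23.

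Skp2 and Cdc25a, which act on p27 and on Cdk2, rose with each treatment. Skp2 had means of 828 ± 40.5 with OHT, 702 ± 34.8 with dox and 985 ± 47.5 with OHT+dox, against 552 ± 28.1 in mock. No treated mean came within its SE of the mock mean, and OHT+dox stood highest. Skp2 rose, in log2 units, by 0.58 ± 0.10 with OHT (adjusted p = 3.43e-07, Wald test), by 0.35 ± 0.10 with dox (adjusted p = 0.0113) and by 0.84 ± 0.10 with OHT+dox (adjusted p = 6.11e-15). OHT+dox exceeded dox by 0.49 ± 0.10 (adjusted p = 2.13e-05), whereas its difference of 0.25 from OHT (adjusted p = 0.126) and the difference of 0.24 between OHT and dox (adjusted p = 0.0910) did not pass.

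Cdc25a rose in the same 3 comparisons with mock. Its means were 609 ± 31.2 with OHT, 559 ± 28.9 with dox and 734 ± 37.0 with OHT+dox, against 441 ± 23.5 in mock. All treated groups were above mock, with OHT and dox close to each other. The gene rose by a log2 fold change of 0.47 ± 0.11 with OHT (adjusted p = 0.000183, Wald test), by 0.34 ± 0.11 with dox (adjusted p = 0.0182) and by 0.74 ± 0.11 with OHT+dox (adjusted p = 7.31e-11). OHT+dox lay 0.39 ± 0.10 above dox (adjusted p = 0.00167), and neither its 0.27 over OHT (adjusted p = 0.114) nor the 0.12 between OHT and dox (adjusted p = 0.510) passed. Of the 10 genes, Skp2 and Cdc25a alone passed in all 3 comparisons with mock. The Cdc25a window shown above holds an E2F form, and the Skp2 windows hold none.

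**Figure D2:**
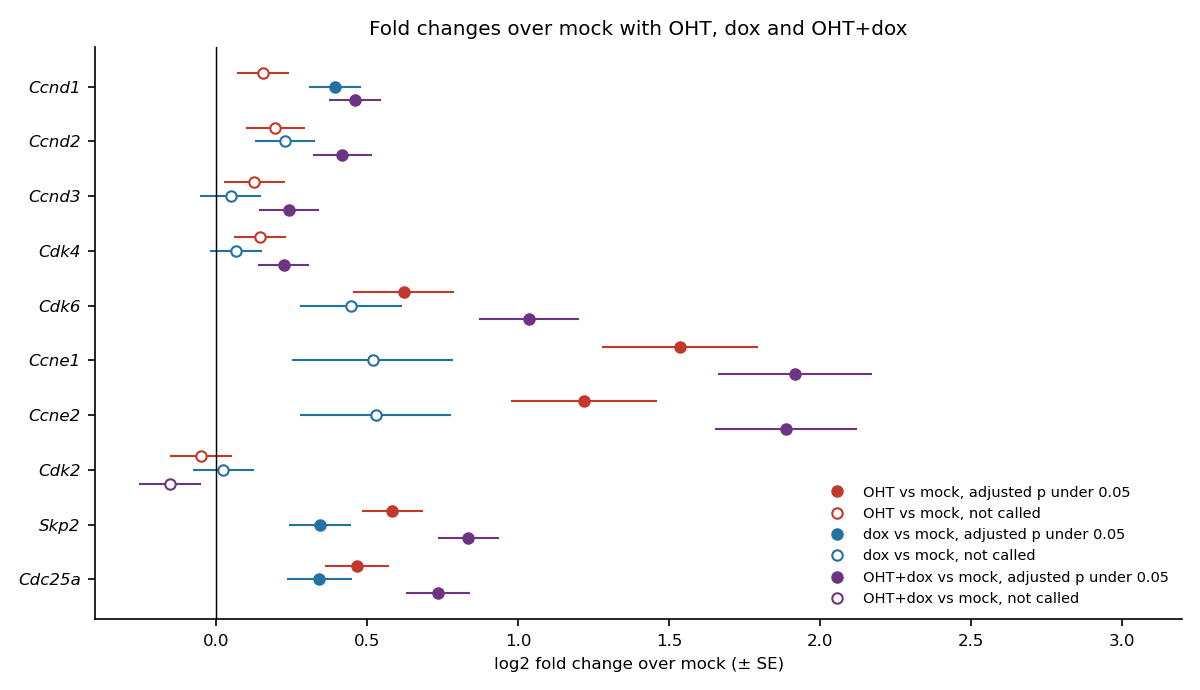
Log2 fold changes over mock (points, ± SE) of the 10 genes with OHT, dox and OHT+dox, filled where the adjusted p was under 0.05. The OHT+dox point is filled for 9 genes, reaching 1.92 for Ccne1, and the Cdk2 points lie around 0.

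Among the D-type cyclins, Ccnd1 rose with dox and with OHT+dox. Its means were 2353 ± 99.7 with OHT, 2774 ± 117 with dox and 2902 ± 122 with OHT+dox, against 2112 ± 89.9 in mock. The groups given dox stood together above those without it. Ccnd1 rose by 0.39 ± 0.09 on the log2 scale with dox (adjusted p = 0.000211, Wald test) and by 0.46 ± 0.09 with OHT+dox (adjusted p = 1.07e-06), and had 0.16 ± 0.09 with OHT (adjusted p = 0.202). OHT+dox exceeded OHT by 0.30 ± 0.09 (adjusted p = 0.0142) but dox by only 0.07 ± 0.09 (adjusted p = 0.658). The log2 difference of OHT from dox was −0.24 ± 0.09 (adjusted p = 0.0389), and Ccnd1 was the single member to pass the test as lower with OHT than with dox. That last call was lost when all groups were set to the same summed normalized count (adjusted p = 0.0662, over all alternatives 0.000496 to 0.0662).

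Ccnd2 passed the test with OHT+dox and with neither treatment alone. It averaged 3707 ± 179 with OHT, 3789 ± 182 with dox and 4323 ± 208 with OHT+dox, against 3236 ± 156 in mock. The single treatments lay between mock and OHT+dox and close to each other. The log2 fold change was 0.42 ± 0.10 with OHT+dox (adjusted p = 0.000126, Wald test), and 0.20 ± 0.10 with OHT (adjusted p = 0.147) and 0.23 ± 0.10 with dox (adjusted p = 0.127) did not pass. OHT+dox differed from OHT by 0.22 (adjusted p = 0.201) and from dox by 0.19 (adjusted p = 0.162), so the combination is not shown to differ from either treatment alone.

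Ccnd3 changed least of the cyclins. Its means were 663 ± 32.5 with OHT, 628 ± 31.0 with dox and 719 ± 34.9 with OHT+dox, against 608 ± 30.0 in mock. The SE ranges of the OHT, dox and mock means overlapped. The log2 fold change of 0.24 ± 0.10 with OHT+dox passed narrowly (adjusted p = 0.0396, Wald test), and was lost with equal summed counts (adjusted p = 0.0615, over all alternatives 0.00127 to 0.0615). OHT gave 0.13 (adjusted p = 0.416) and dox 0.05 (adjusted p = 0.847).

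Of the kinases of cyclin D, Cdk4 rose slightly and Cdk6 more strongly with OHT+dox. Cdk4 had means of 1400 ± 58.6 with OHT, 1324 ± 55.6 with dox and 1477 ± 61.6 with OHT+dox, against 1265 ± 53.3 in mock. OHT+dox lay 0.22 ± 0.09 above mock on the log2 scale (adjusted p = 0.0250, Wald test). The gene with 4 E-boxes in its window had 0.15 ± 0.09 with OHT, which did not pass (adjusted p = 0.232), and 0.07 ± 0.09 with dox (adjusted p = 0.735). Cdk6 had means of 281 ± 22.5 with OHT, 249 ± 20.2 with dox and 375 ± 29.4 with OHT+dox, against 183 ± 15.4 in mock. Each treated mean of Cdk6 was above mock by more than the SEs. The gene rose by 0.62 ± 0.17 with OHT (adjusted p = 0.00201) and by 1.04 ± 0.17 with OHT+dox (adjusted p = 5.85e-09), a fold of 2.05, and had 0.45 ± 0.17 with dox (adjusted p = 0.0649). OHT+dox exceeded dox by 0.59 ± 0.16 (adjusted p = 0.00277), and its 0.42 ± 0.16 over OHT did not pass (adjusted p = 0.120).

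To ask what each factor added to the other, the treated groups were also set against each other. Against OHT, OHT+dox was higher for 2 of the 10 genes, Ccnd1 and Ccne2, and lower for 0, where 2.64% of all genes were higher and 2.18% lower. The count at an unadjusted p under 0.05 was 6 higher and 0 lower, where 2005 of all 12257 genes passed in either direction. Against dox, OHT+dox was higher for 5 genes, Ccne1, Ccne2, Cdk6, Skp2 and Cdc25a, and lower for 0. Over all genes 12.7% were higher and 9.02% lower. For the same 5 genes and no others the unadjusted p was also under 0.05, where 3929 of all 12257 genes passed in either direction. All 5 of these also rose with OHT against mock, a comparison of other libraries. The overlap over all genes was not counted, so it is not shown to be particular to these 5. The 2 comparisons are not independent, since they share the dispersion of each gene. The recovered mock mean also entered the calculation of every treated mean. OHT was higher than dox for Ccne1 and Ccne2 and lower for Ccnd1, where 8.74% of all genes were higher and 7.57% lower. With the multiplied standard errors 6 genes were higher in OHT+dox than in OHT, and 8 were higher and 1 (Cdk2) lower than in dox. Of all 12257 genes, 2368 and 4928 were then called in either direction.

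No departure of the combination from additivity on the log2 scale was detected. The interaction (log2 OHT+dox minus OHT minus dox plus mock) passed the Wald test for 0 of the 10 genes and 0 of 12257 genes (0%), and at an unadjusted p under 0.05 for 0 of the 10 and 132 of 12257. The members' values ran from −0.14 (Ccne1) to 0.14 (Ccne2). Over all alternatives the value of Ccne1 ran from −0.33 to 0.24 and that of Ccne2 from −0.031 to 0.50. The 95% interval was −0.84 to 0.56 for Ccne1 and −0.51 to 0.78 for Ccne2, wide enough to hold a departure of either sign, and the narrowest, for Cdk4, was −0.23 to 0.25. The standard deviation of the interaction z-values over all genes was 0.696, below the value of 1 that the standard errors imply. In the check on simulated data, the interaction test called 2% of genes with a log2 departure of 0.25, 44% at 0.5 and 96% at 1.0. Those genes were picked for higher means. A small departure would thus mostly go uncalled, and additivity is not shown by the lack of calls.

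**Figure D3:**
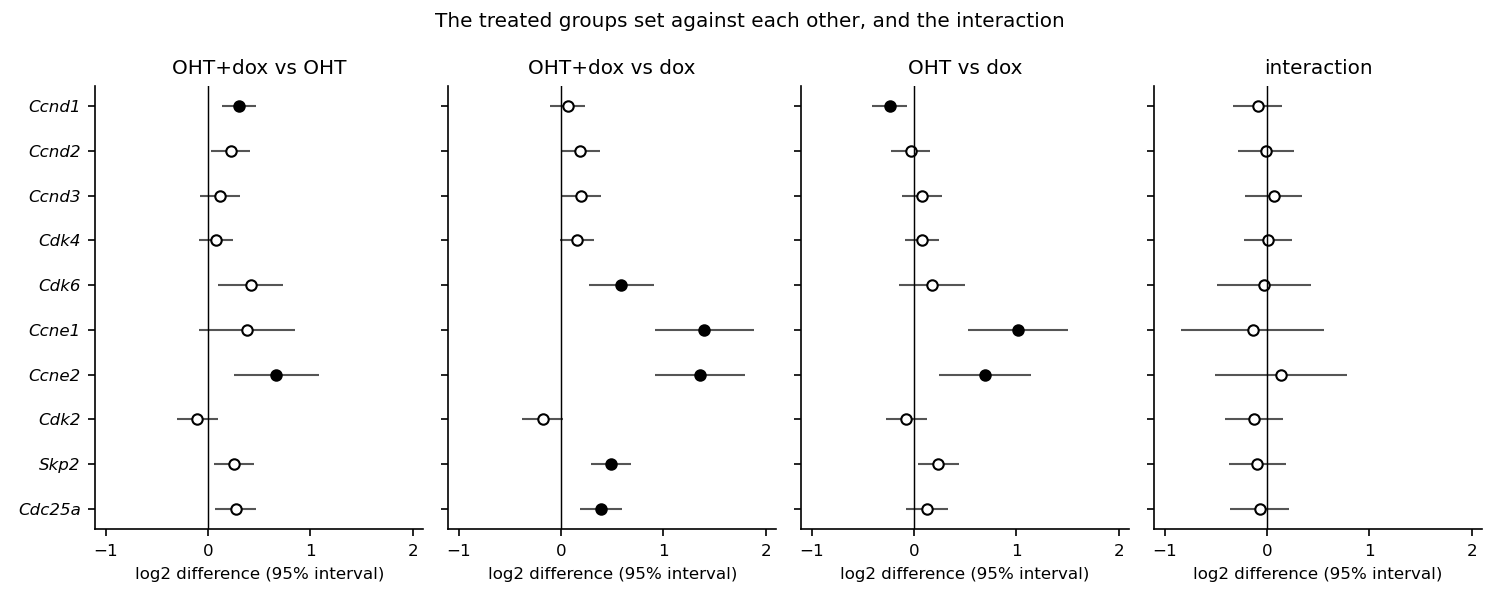
Log2 differences (points, with 95% intervals) of the 10 genes for OHT+dox against OHT, OHT+dox against dox, OHT against dox, and the interaction, filled where the adjusted p was under 0.05. Filled points are Ccnd1 and Ccne2 against OHT, 5 genes against dox, and 3 genes between OHT and dox, and no interaction is filled.

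Levels were compared between genes only per kilobase of exon, with lengths from GENCODE M21 on GRCm38, since the sources used here do not name the authors' annotation. In mock, Cdk4 had 616 ± 26.0 (SE) normalized counts per kb, Ccnd1 565 ± 24.0, Ccnd2 482 ± 23.3, Ccnd3 248 ± 12.3 and Cdk2 236 ± 11.8. Cdc25a (93.6 ± 4.99) and Skp2 (86.5 ± 4.40) stood lower, and Ccne1 (25.6 ± 3.45), Cdk6 (15.9 ± 1.33) and Ccne2 (12.1 ± 1.56) lowest. The ranges of mean ± SE overlapped for Ccnd3 and Cdk2 and for Cdc25a and Skp2. Ccne1, Cdk6 and Ccne2 also had the largest log2 fold changes with OHT+dox (1.92, 1.04 and 1.89), and both values rest on the same mock mean. Summed per kb, the D-type cyclins were 14.1 times the E-type cyclins with OHT, 28.8 times with dox and 12.1 times with OHT+dox, against 34.3 times in mock. These ratios and the shares below carry no SE and were not tested. With dox, neither Ccne1 (adjusted p = 0.225, Wald test) nor Ccne2 (adjusted p = 0.176) passed against mock. Ccne1 made up 72.4% of the E-type sum with OHT, 67.7% with dox and 68.3% with OHT+dox, against 67.9% in mock. Ccnd1 made up 43.3%, 47.5% and 45.3% of the D-type sum with OHT, dox and OHT+dox, against 43.6% in mock.

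**Figure D4:**
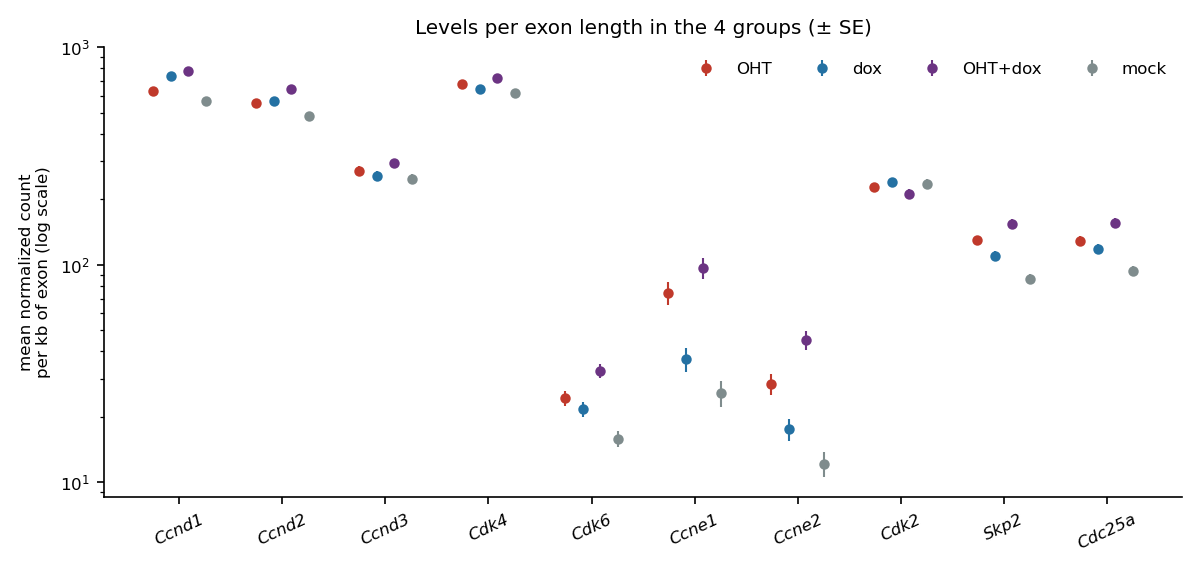
Mean normalized count per kb of exon (log axis, points ± SE) of the 10 genes in OHT, dox, OHT+dox and mock. Cdk4 and Ccnd1 are the highest in all 4 groups, and Cdk6, Ccne1 and Ccne2 lie lowest in mock, at 15.9, 25.6 and 12.1.

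Because the library kit does not keep the strand, reads from overlapping genes cannot be told apart. GENCODE M21 places Ccnd1 and Ccne1 on chromosome 7, Cdk2 and Cdk4 on 10, Ccnd2 on 6, Ccnd3 on 17, Ccne2 on 4, Cdk6 on 5, Skp2 on 15 and Cdc25a on 9. In it, 6 members share exon bases with a gene on the opposite strand, and 4 of these neighbours were tested. The exon lengths used for the levels per kb include the shared bases, and their effect on those levels was not tested. Bysl, a ribosome biogenesis factor that covers 14.8% of the exon bases of Ccnd3, had log2 fold changes of 0.70 ± 0.12 with OHT, 0.85 ± 0.12 with dox and 1.16 ± 0.12 with OHT+dox (adjusted p = 3.49e-20, Wald test). Its part in the small Ccnd3 value was not tested, and Ccnd3 also has 1 annotated pseudogene. Oraov1 (LTO1), over 29.4% of the exon bases of Ccnd1, had −0.01 ± 0.12 with dox and −0.10 ± 0.12 with OHT+dox. Ints8, over 19.0% of those of Ccne2, had −0.01 ± 0.11 with OHT+dox, and Tspan31, over 31.2% of those of Cdk4, had −0.07 ± 0.09. None of these 3 passed a test. Ccne1, Cdk2, Skp2 and Cdc25a share no exon bases with another annotated gene.

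Genes whose response was most like that of the cyclin E genes were sought by Euclidean distance over the 3 log2 fold changes against mock, among genes with at least the member's mean count. Nearest to Ccne1 of 9435 genes were 3110082I17Rik (distance 0.13), Lmnb2, a nuclear lamin (0.17), and Ung, the uracil-DNA glycosylase (0.22). Nearest to Ccne2 of 9933 genes were Ung (0.21), Hells, a chromatin remodeler (0.24), and Rangap1, the GTPase-activating protein of Ran (0.30). Ung had log2 fold changes of 1.37 with OHT, 0.67 with dox and 1.93 with OHT+dox, against mock in each case. The measure is a description over 3 values that share the mock libraries.

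Downstream of the 10 genes, E2F targets used for S phase entry rose with OHT. Ccne1 and Ccne2 are on that list too and were left out here. Of the 17 other genes on it, 14 rose with OHT, 1 with dox and all 17 with OHT+dox, with medians of 0.72, 0.16 and 0.75 on the log2 scale, where 12.8%, 6.3% and 20.8% of all genes rose. Cdc6, which loads the replicative helicase, had 144 ± 16.1 normalized counts with OHT, 59.7 ± 7.49 with dox and 188 ± 20.6 with OHT+dox, against 53.6 ± 6.86 in mock. Its log2 fold change was 1.43 with OHT and 1.81 with OHT+dox (adjusted p = 2.25e-12, Wald test), close in size to those of Ccne1. Rrm1, a ribonucleotide reductase subunit and the single gene of the list called with dox, had 0.10 with OHT and 0.36 with dox (adjusted p = 0.00254). Of the RB and E2F family itself (13 genes), 5 rose with OHT, 2 rose and 1 fell with dox, and 7 rose and 1 fell with OHT+dox, where 12.8%, 6.3% and 20.8% of all genes rose and 9.02%, 4.58% and 19.3% fell. E2f5 averaged 253 with OHT, 243 with dox and 304 with OHT+dox, against 180 in mock, and rose in each comparison with mock, although both calls with dox (E2f5 and E2f6) were lost with equal summed counts and with the shrinkage kept. E2f2 (log2 fold change 1.33 ± 0.51) and E2f7 (0.78 ± 0.29) rose with OHT+dox at low counts, 13.5 and 64.6 against 5.35 and 37.6 in mock, and the pocket protein Rbl2 had −0.20 ± 0.09 (adjusted p = 0.0419). With OHT+dox the family's counts were 5 higher and 0 lower with the shrinkage kept, and 6 higher among genes with a mean of at least 10 in every group, which leaves out E2f2.

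Some of the CDK inhibitors fell. Of 6 tested, 2 fell with OHT, 1 with dox and 3 with OHT+dox, and 0 rose by the Wald test in any of these, with medians of −0.26, −0.19 and −0.46 on the log2 scale, where 9.02%, 4.58% and 19.3% of all genes fell. The count with OHT was 1 with each comparison's own standard errors, with the shrinkage kept or with a mean of at least 10 in every group. It was 4 with the multiplied standard errors, where 4898 of all 12257 genes were called in either direction. At an unadjusted p under 0.05, 4 were lower and 0 higher with OHT, 1 lower and 1 higher with dox, and 3 lower and 0 higher with OHT+dox. Of all 12257 genes, 3945, 2783 and 5810 passed that threshold in either direction. Cdkn1a, which encodes p21, had few counts, 7.61 ± 2.17 with OHT, 17.3 ± 4.12 with dox and 5.24 ± 1.67 with OHT+dox, against 28.4 ± 6.31 in mock, and fell by 1.90 on the log2 scale with OHT (adjusted p = 0.00252, Wald test). It fell by 2.44 with OHT+dox (adjusted p = 8.35e-05). Cdkn1b encodes p27, the substrate of Skp2. It averaged 1581 ± 68.0 with OHT, 1481 ± 63.9 with dox and 1330 ± 57.8 with OHT+dox, against 1821 ± 77.6 in mock, and fell by 0.30 with dox (adjusted p = 0.0102) and by 0.45 with OHT+dox (adjusted p = 2.28e-06). Cdkn2c, an inhibitor of Cdk4 and Cdk6, fell by 0.46 with OHT+dox (adjusted p = 0.00309). Cdkn2b, of the same family, fell by 0.35 with OHT (adjusted p = 0.00723) and had −0.13 with OHT+dox (adjusted p = 0.335).

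**Figure D5:**
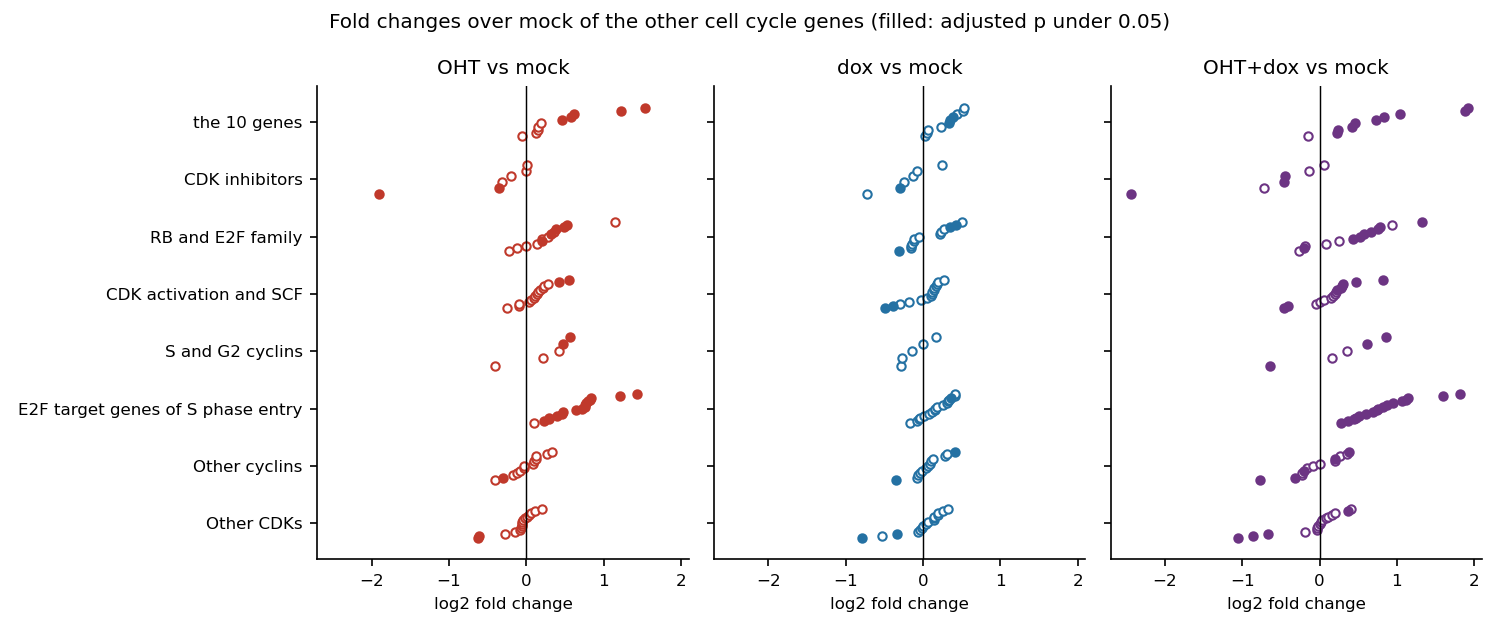
Log2 fold changes over mock of the 10 genes and of each list of other cell cycle genes (points, 1 per tested gene, without the members) with OHT, dox and OHT+dox, filled where the adjusted p was under 0.05. All 17 E2F targets of S phase entry are filled and above 0 with OHT+dox, and the lowest point is Cdkn1a at −2.44.

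Among 15 tested genes of CDK activation and the SCF ligase, 2 were called with OHT, both higher, 2 with dox, both lower, and 7 with OHT+dox, of which 5 rose and 2 fell. Over all genes 12.8% rose and 9.02% fell with OHT, 6.3% and 4.58% with dox, and 20.8% and 19.3% with OHT+dox. Cks2 (0.82 ± 0.21) and Cks1b (0.47 ± 0.12), the small CDK-binding proteins of which Cks1b assists Skp2, rose on the log2 scale with OHT+dox, and Cdc25b (−0.46 ± 0.15), a phosphatase related to Cdc25a, and Fzr1 (−0.41 ± 0.11), an activator of the anaphase-promoting complex, fell. Fbxo31, an F-box protein, averaged 403 ± 24.5 with OHT, 232 ± 15.2 with dox and 374 ± 22.9 with OHT+dox, against 302 ± 19.0 in mock. It rose with OHT and with OHT+dox (log2 fold change 0.31 ± 0.13) and fell with dox, and OHT exceeded dox by 0.80 ± 0.13 (Wald test). Among the 5 tested S and G2 genes, the S phase cyclin Ccna2 averaged 251 ± 20.1 with OHT, 154 ± 13.1 with dox and 306 ± 24.1 with OHT+dox, against 169 ± 14.2 in mock, and Cdk1 averaged 285 ± 19.1, 233 ± 16.0 and 316 ± 20.8, against 206 ± 14.5 in mock. Both rose with OHT and with OHT+dox, whereas the mitotic cyclin Ccnb2 fell with OHT+dox (−0.64 ± 0.26, adjusted p = 0.0390), a call lost with the shrinkage kept.

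Cyclins and CDKs with roles outside G1 were counted beside the same shares of all genes (with OHT+dox 20.8% higher and 19.3% lower). Of 13 tested other cyclins, 1 fell with OHT, 1 rose and 1 fell with dox, and 2 rose and 3 fell with OHT+dox. Ccng2, a cyclin linked to cell cycle arrest, averaged 1126 ± 53.7 with OHT, 1094 ± 52.2 with dox and 818 ± 39.9 with OHT+dox, against 1390 ± 65.4 in mock, and fell in each comparison, by 0.76 on the log2 scale with OHT+dox (adjusted p = 1.75e-13, Wald test). Ccnc (0.38 ± 0.13) and Ccny (0.20 ± 0.08) rose with OHT+dox, and Ccni (−0.31 ± 0.09) and Ccnl2 (−0.20 ± 0.08) fell. Of 16 tested other CDKs, 2 fell with OHT, 2 fell with dox, and 1 rose and 3 fell with OHT+dox. With the shrinkage kept 1 fell with OHT, 0 with dox and 2 with OHT+dox. The Mediator kinases moved apart, with Cdk8 at 662 ± 33.5 with OHT+dox against 513 ± 26.7 in mock (log2 fold change 0.37 ± 0.10) and its paralog Cdk19 at 413 ± 23.3 against 860 ± 45.3 in mock (−1.06 ± 0.11). Cdkl2 (−0.87 ± 0.23) and Cdk20 (−0.66 ± 0.26) also fell with OHT+dox.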

How the data were processed

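The submitters' processing notes name TopHat2 2.0.8, SAMtools, featureCounts 1.4.5-p1, the mm9 build and DESeq2, with which the authors made 3 comparisons with mock. The deposited table gives, per comparison, the mean normalized count over 6 libraries, the authors' log2 fold change shrunken toward 0, the authors' adjusted p-value and a DEG call. The values of single libraries were not held, so group means were recovered from these columns, none of which is printed. The Benjamini-Hochberg adjustment was undone, the SE of a fold was taken as the fold over its z-value, and the normal prior was removed (prior standard deviation 0.447 in the OHT, 0.337 in the dox and 0.620 in the OHT+dox comparison, the peak SE being 0.5 times it). SEs were not read where p was above 0.9. Means and 1 dispersion per gene, averaged over comparisons, followed. The members' recovered folds differed by at most 0.0023, 0.0020 and 0.0011 on the log2 scale from those with the shrinkage undone directly. This covers members with an adjusted p, which were 10, 9 and 10 with OHT, dox and OHT+dox, and so not Ccne2 with dox. Contrasts among the 4 groups were tested by two-sided Wald tests, in place of tests on counts, with Python 3.11.15, NumPy 2.4.6, pandas 2.3.3 and SciPy 1.17.1, after the method was checked on simulated data. DEG counts also needed an absolute log2 fold change above 0.5. Lines with repeated symbols (4) were left out, and group sums over the tested genes were near-equal. The genes named from other lists are, by rule, up to 3 with the highest and 3 with the lowest log2 fold change among those called in OHT+dox against mock, and Rrm1, Cdkn2b, E2f6 and the overlapping neighbours were added after their values were seen. The 10 genes and the lists were chosen with earlier results of these data known. Alternatives changed the standard errors, the scaling, the prior, the shrinkage, the filter on low means and the fold threshold.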

Additional observations from a re-analysis of the deposited data

How the results depend on the processing

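Of 449 recomputed values of single genes in the 7 comparisons, 425 kept their direction and side of the threshold. Standard errors multiplied by the spread of the interaction z-values (0.696) raised the counts. They gave 4898 genes called with OHT (2668 otherwise), 3474 with dox (1333), 2368 for OHT+dox against OHT (590), 4928 for OHT+dox against dox (2666), 3993 for OHT against dox (1999), 35 for the interaction (0) and 760 DEGs with dox (493). Under them 8 of the 10 genes rose with OHT, 7 with dox, 6 in OHT+dox against OHT and 8 against dox, where 1 fell. With no fold threshold the DEGs numbered 2668 with OHT (1155 otherwise), 1333 with dox (493) and 4912 with OHT+dox (2538). A prior standard deviation 10 percent lower left 1 gene higher in OHT+dox than in OHT (2 otherwise) and 1 higher in OHT than in dox (2), and gave 1 interaction call, as did 10 percent higher. Equal sums left 0 genes lower in OHT than in dox (1 otherwise). The interaction changed sign without a call for Ccnd2 (0.0077), Ccne1 (0.24) and Cdk6 (0.060) with the shrinkage kept, and for Ccne2 (−0.031) with the lower prior. Equal sums shifted the median log2 fold change of all genes by at most 0.02. Of 294 recomputed list counts, 33 moved by more than 1.5 times. The cause of these shifts was not tested. No paired analysis was possible because no value per library was held, and leaving out each replicate in turn was not run for the same reason. Cyclin E rests on the fewest counts of the 10 genes and has the widest intervals.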
